A study of Mus musculus with 6 samples.

Results

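The replication-dependent histone genes of the mouse were followed across 3 kinds of pre-B cell culture on 6 single-colour Agilent arrays. Members were all 60-base probes of the array whose design name begins with Hist1h, Hist2h, Hist3h or Hist4h, which gave 55 of 55681 probes and 49 of 34797 gene names. They comprised 6 probes for H1, 15 for H2A, 12 for H2B, 8 for H3 and 14 for H4. The cells were the line 1676, pre-B cells of a mouse lacking the adaptor proteins SLP-65 and LAT, and all 3 groups were kept in excess interleukin-7 (IL-7) and selected with puromycin. One group carried the empty retroviral vector (control) and one a vector for human miR-26a-2 (hsa-miR-26a-2, called miR-26a here). The third carried a miR-26 sponge, a transcript with repeated binding sites that holds the microRNA. Each group had 2 arrays, 1 from each of 2 experiments that the paper calls independent.

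Replication-dependent histones package new DNA, and their genes are switched on at the start of S phase and silenced at its end. Their mRNAs are the only cellular messages of animals known to end in a conserved stem-loop instead of a poly(A) tail. The stem-loop is bound by SLBP and cut by a complex built on the U7 snRNP. Some of these genes also make polyadenylated transcripts that reach past the stem-loop. H2A, H2B, H3 and H4 form the core of the nucleosome, H1 binds the linker DNA, and the genes lie mostly in a large cluster (Hist1) with smaller ones (Hist2, Hist3, Hist4). RNA was labelled with a kit that primes from oligo-dT. Where a probe holds part or all of the stem-loop, this is stated.

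The consensus of the histone stem-loop was sought on the sense strand of every probe. It occurred in 7 of 55681 probes, of which 6 were histone probes. One from each core class is shown because it carries the element in full. In the following lines the capitals mark the stem-loop, 5′ to 3′, and the coordinates are mm9, the build of the array design.
Hist1h3a, chr13:23853756-23853779 on the minus strand: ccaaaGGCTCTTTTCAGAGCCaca
Hist2h2aa1, chr3:96049950-96049975 on the plus strand: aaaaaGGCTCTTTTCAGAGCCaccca
Hist2h2bb, chr3:96074089-96074114 on the plus strand: caaaaGGCTCTTTTCAGAGCCacttt
Hist1h4m, chr13:21903993-21904018 on the plus strand: ctaaaGGCCCTTTTCAGGGCCatcca
The other 2 are probes for Hist1h3g and Hist1h3i. The probe for Hist1h2ab ended inside the element and that for Hist1h2ae began inside it, so that most of the Hist1h2ae probe lies downstream of the stem-loop.
Hist1h2ab, chr13:23843429-23843451 on the plus strand: aaccaaaacaaaGGCTCTTTTCA
Hist1h2ae, chr13:23662525-23662548 on the minus strand: CTTTTCAGAGCCattcacttaatt

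Several H2A probes lay in coding sequence that the genes share almost letter for letter. A stretch of 30 bases from 5 of them shows how far the array could tell the genes apart, with capitals at bases that differ from the majority of the 8 probes that hold it.
Hist1h2ah, chr13:22127047-22127076 on the minus strand: ctgctgcccaagaagaccgagagccaccac
Hist1h2af, chr13:23626125-23626154 on the plus strand: ctgctgcccaagaagaccgagagccaccaT
Hist1h2an, chr13:21878713-21878742 on the minus strand: ctgctgccGaagaagaccgagagccaccac
Hist2h2ac, chr3:96024393-96024422 on the minus strand: ctgctgcccaagaagaccgagagccacAaG
Hist2h2ab, chr3:96024184-96024213 on the plus strand: TtActTccGaagaaAacGgaAagTcaTAaG
Hist1h2af differed from the majority at 1 base and Hist2h2ac at 2, whereas Hist2h2ab differed at 11. The longest run that the Hist1h2ah probe shared with a probe of another gene was 42 bases, so the values of Hist1h2af, Hist1h2ag, Hist1h2ah, Hist1h2ak, Hist1h2an, Hist2h2aa2 and Hist2h2ac cannot be assigned to single genes with certainty. In all, 16 of the 46 histone probes tested shared a run of at least 20 bases with a probe of another histone gene. None of the 6 probes called below in the comparison of miR-26a with control did.

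Of the 55 histone probes, 46 were bright enough to be tested, and these named 41 genes. They were 4 of 6 probes for H1, 14 of 15 for H2A, 8 of 12 for H2B, 7 of 8 for H3 and 13 of 14 for H4. The 9 probes that were not tested were those of Hist1h1d, Hist1h1t, Hist1h2ac, Hist1h2bg, Hist1h2bp, Hist1h2bq, the pseudogenes Hist2h3c2-ps and Hist3h2bb-ps, and 1 of 2 probes of Hist4h4. Hist1h1t is the testis form of H1. Histone probes made up 3 to 7 of the 20 brightest spots of an array, and no spot was saturated.

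Before the comparisons, the arrays themselves differed in the histone genes. Over the 46 tested probes the median deviation from the mean of the 6 arrays was 0.03 and 0.11 on the log2 scale in the 2 control arrays, -0.03 and 0.16 in the miR-26a arrays, and -0.26 and 0.02 in the sponge arrays of experiments 1 and 2. The sponge array of experiment 1 was thus the lowest, and it also had the fewest spots well above background, 28823 against 28908 to 29800 on the other arrays. Histone probes were higher in experiment 2 than in experiment 1 in 32 of 46 cases for control, 39 for miR-26a and 40 for sponge, against 46%, 50.3% and 47.6% of all 20168 probes tested. The fit kept the experiment as a block. The arrays read RNA of whole cultures, labelled from oligo-dT. Fewer cells in S phase, less histone mRNA per cell and a smaller polyadenylated share of histone RNA therefore cannot be told apart.

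With miR-26a, 6 of 46 histone probes differed from control. Signals of Hist3h2ba, Hist3h2a, Hist1h2bc and Hist2h2ab fell and those of Hist1h2ae and 1 probe of Hist1h4i rose. These were 4 probes lower and 2 higher of 46 at an adjusted p under 0.05 (limma, Benjamini-Hochberg over all probes), beside 5.14% lower and 4.50% higher among all 20168 probes. The 2 miR-26a arrays lay below both control arrays in 6 histone probes and above them in 8, beside 22.9% and 26.5% of all probes. The median log2 change of the histone probes was 0.00, with 22 of 46 below 0, beside 0.01 for all probes and 47.3% of them below 0. Hist1h2ah and Hist1h2af stood at exactly 0, as described below. The 6 called probes had a GC content of 35% to 45%, beside a median of 51.7% for the 46 tested. By class the medians were 0.08 for H1, 0.00 for H2A, -0.02 for H2B, 0.07 for H3 and -0.02 for H4. In experiment 1 the median over all histone probes was -0.08 and in experiment 2 it was 0.07, with -0.12 and 0.28 for H1 and -0.08 and 0.19 for H3. Leaving out either control array, 1 histone probe was called in place of 6.

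Hist3h2ba, an H2B gene of the small cluster on chromosome 11, showed the largest change. Its normalized log2 intensity was 9.92 and 10.13 in control, 8.67 and 8.96 with miR-26a, and 9.92 and 10.37 with the sponge. Both miR-26a arrays lay below all 4 others. The log2 change against control was -1.21 ± 0.08 (SE, n = 2 arrays a group), a 2.31-fold fall with an adjusted p of 0.0044, and it was -1.25 in experiment 1 and -1.17 in experiment 2. Its probe (chr11:58762964-58763023, plus strand) ends in AATAAA followed by a few bases, the usual poly(A) signal, and the signal is shown in capitals.
Hist3h2ba, chr11:58762999-58763023 on the plus strand: taatggtattAATAAAtttggttca
AATAAA occurred in 2 of 55 histone probes, the other being the coding probe of Hist1h2ag, and in 10.1% of all probes on the sense strand.

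Hist3h2a, the H2A gene of the same cluster, fell as well. Its probe (chr11:58768954-58769013) starts 5990 bases downstream of that of Hist3h2ba on the same strand. Its log2 intensity was 9.97 and 10.22 in control, 9.37 and 9.72 with miR-26a, and 9.91 and 10.01 with the sponge, so the miR-26a arrays again lay below the 4 others. The change against control was -0.55 ± 0.09 (adjusted p = 0.021). The 2 tested probes of the Hist3 cluster were thus both called lower, against 1 of 34 for Hist1 and 1 of 9 for Hist2.

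Hist1h2bc, an H2B gene of the Hist1 cluster, had log2 intensities of 9.73 and 9.81 in control, 9.11 and 9.43 with miR-26a and 9.78 and 9.83 with the sponge. The miR-26a arrays did not overlap with either other group. The change was -0.50 ± 0.09 (adjusted p = 0.030). Hist2h2ab, whose shared stretch differed most from the other H2A genes above, gave 8.34 and 8.31 in control, 7.68 and 7.96 with miR-26a and 7.78 and 8.15 with the sponge. The miR-26a and sponge arrays overlapped and all 4 lay below both control arrays. The change with miR-26a was -0.50 ± 0.11 (adjusted p = 0.048). Against the sponge the difference was -0.15 (adjusted p = 0.40).

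Hist1h2ae was the H2A probe that rose, and it is the one that begins inside the stem-loop. It gave 6.59 and 6.37 in control, 7.19 and 6.95 with miR-26a, and 6.79 and 6.55 with the sponge. Both miR-26a arrays lay above the others, and the sponge arrays overlapped with control. The change was 0.60 ± 0.07 (adjusted p = 0.0092), with 0.61 in experiment 1 and 0.58 in experiment 2.

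Hist1h4i, an H4 gene, was measured by 3 probes that did not give the same call. The one nearest the 3′ side (chr13:22132591-22132650, minus strand) gave 10.52 and 10.34 in control, 11.24 and 10.84 with miR-26a, and 10.50 and 10.24 with the sponge, with the miR-26a arrays above all others. Its change against control was 0.61 ± 0.08 (adjusted p = 0.015). The next probe starts 88 bases upstream and changed by 0.28 (adjusted p = 0.064), and the third starts a further 460 bases upstream and changed by 0.24 (adjusted p = 0.16). All 3 were above 0 in both experiments. Probe sequences were compared only among histone probes. Whether the middle probe of Hist1h4i also reads other RNAs, such as those with repeats, was not tested.

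**Figure D1:**
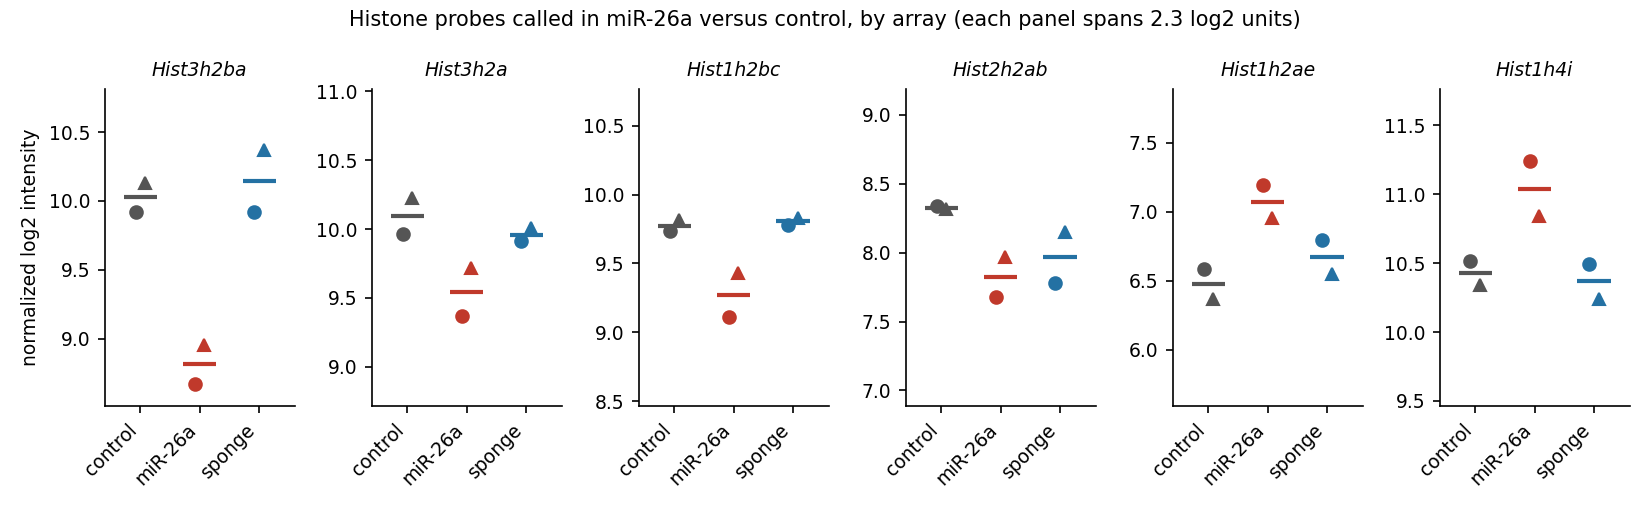
Normalized log2 intensity of the 6 histone probes called in miR-26a versus control, by group, with circles for experiment 1, triangles for experiment 2 and bars for the mean of the 2 arrays. The miR-26a arrays lie below both other groups for Hist3h2ba, Hist3h2a and Hist1h2bc and above them for Hist1h2ae and the called probe of Hist1h4i, whereas for Hist2h2ab they overlap with the sponge arrays.

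Among the probes not called, Hist1h3a had the largest difference. This H3 probe holds the whole stem-loop, and it gave 8.79 and 8.79 in control, 9.12 and 9.76 with miR-26a, and 8.59 and 9.04 with the sponge. The change against control was 0.65 ± 0.15 (adjusted p = 0.060), 0.33 in experiment 1 and 0.97 in experiment 2. Over the 6 probes that hold the stem-loop the median change was 0.16 with miR-26a, -0.03 in experiment 1 and 0.39 in experiment 2, and none was called.

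In the H1 class, which includes the common linker histones, the extremes were Hist1h1c with -0.17 (adjusted p = 0.17) and Hist1h1a with 0.19 (adjusted p = 0.45). Hist1h1b and Hist1h1e differed by 0.02 and 0.14. In the 2 experiments Hist1h1a differed by -0.08 and 0.45 and Hist1h1e by -0.17 and 0.46, so their direction was not the same in both. Hist1h1c was measured at 8.63 and 8.70 in control, 8.46 and 8.52 with miR-26a, and 8.66 and 8.78 with the sponge, so its miR-26a arrays lay below the others although the difference was not called. In H3, the lowest was Hist1h3d with -0.14 (adjusted p = 0.40). In H2B, the highest was Hist1h2ba, a testis-enriched H2B, with 0.25 (adjusted p = 0.46).

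Hist2h4, an H4 gene of the Hist2 cluster, was read by 2 probes 227 bases apart. The upstream probe gave 6.24 and 6.50 in control, 5.95 and 6.18 with miR-26a and 5.997 and 6.08 with the sponge, with changes against control of -0.31 (adjusted p = 0.066) and -0.33 (adjusted p = 0.22). The downstream one gave 17.44 and 17.64 in control, 17.46 and 17.60 with miR-26a and 17.27 and 17.59 with the sponge, with changes of -0.02 and -0.11. No difference was called for either probe in any of the 3 comparisons. In H4 the upstream probe had the lowest change with miR-26a.

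The H2A probes at the top of the array need separate mention, because quantile normalization gives the top ranks of all arrays the same values. Hist1h2ah was 18.67 on each of the 6 arrays for this reason, and Hist1h2af was 18.22 on 4 of them. Scaled to the 75th percentile of each array instead, Hist1h2ah lay 10.24 and 10.27 log2 units above that percentile in control, 10.35 and 10.21 with miR-26a, and 10.64 and 10.01 with the sponge. The change was 0.03 with miR-26a (adjusted p = 0.94) and 0.07 with the sponge (adjusted p = 0.83). Hist1h2af changed by 0.03 and -0.22 on that scale, with adjusted p of 0.87 and 0.27 in limma.

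With the sponge, no histone probe was called at an adjusted p under 0.05 in limma, but most lay below control. At an unadjusted p under 0.05, 16 of 46 were lower and 1 higher, beside 8.72% lower and 7.38% higher among all probes, while at the adjusted threshold the whole array gave 0 probes lower and 2 higher (0.00992%). The log2 change was below 0 in 37 of 46 histone probes against 48.6% of all probes, and its median was -0.19 beside 0.00. Both sponge arrays lay below both control arrays in 20 histone probes and above them in 0, where 20.4% and 17.3% of all probes did so.

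In the H4 class the median was -0.27, with 13 of 13 probes below 0 and 7 at an unadjusted p under 0.05 in limma. The H4 probes belong to 9 genes, and those of Hist1h4d, Hist1h4j and Hist1h4k share runs of 21 or 26 bases. They are thus not 13 separate readings. Medians were -0.23 for H3 (5 of 7 below 0), -0.21 for H2B (5 of 8), -0.20 for H1 (3 of 4) and -0.13 for H2A (11 of 14). Scaled to the 75th percentile instead, H2A had -0.18 (12 of 14 below 0), beside -0.17 for H2B and -0.14 for H1. Hist1h4j had the largest difference. It gave 13.39 and 13.43 in control, 13.20 and 13.53 with miR-26a, and 12.54 and 13.004 with the sponge, with both sponge arrays the lowest. The log2 change was -0.64 ± 0.11, with an unadjusted p of 0.0017 and an adjusted p of 0.21.

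**Figure D2:**
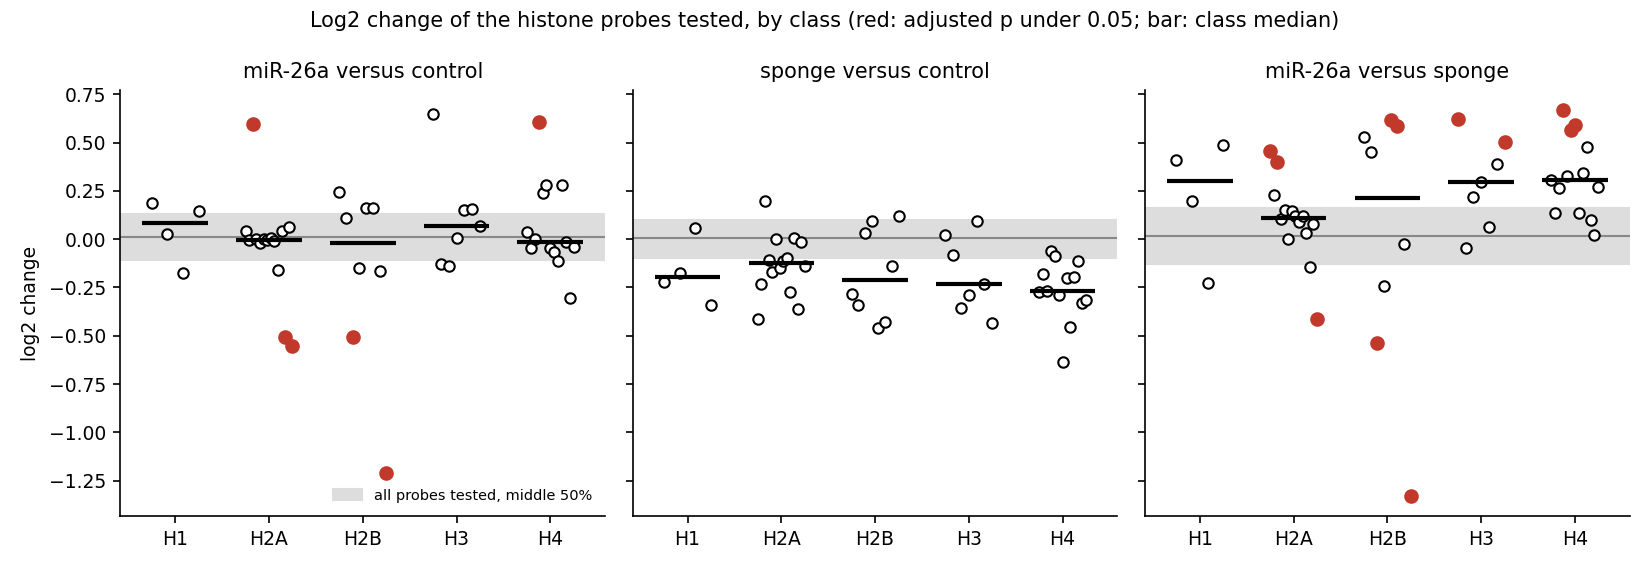
Log2 change of each tested histone probe by class in the 3 comparisons, with filled red points for an adjusted p under 0.05, bars for class medians, and the median and middle 50% of all 20168 probes as a grey line and band. In sponge versus control the class medians run from -0.27 for H4 to -0.13 for H2A, whereas in miR-26a versus control they run from -0.02 to 0.08. Values are quantile-normalized, and with 75th percentile scaling the sponge median was -0.18 for H2A and -0.14 for H1.

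Other probes below control at an unadjusted p under 0.05 came from each core class. Hist1h2bm, an H2B gene, gave 13.35 and 13.53 in control, 13.43 and 13.77 with miR-26a, and 12.62 and 13.34 with the sponge, a change of -0.46 (adjusted p = 0.24). Hist2h3b, an H3 gene, gave 13.92 and 14.06, 13.89 and 14.23, and 13.24 and 13.87 in the same order, a change of -0.43 (adjusted p = 0.24). In each case the sponge array of experiment 1 stood well apart from the rest, and that of experiment 2 lay just below the lower control array.

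Hist1h2aa, the H2A gene with the largest difference (-0.41, adjusted p = 0.22), is known as a testis form of H2A. Its log2 intensity was 8.997 and 9.16 in control, 8.999 and 9.24 with miR-26a, and 8.43 and 8.90 with the sponge. In H1 the lowest was Hist1h1e, with -0.34 (adjusted p = 0.34), and the highest Hist1h1c, with 0.06 (adjusted p = 0.70). The highest values of the other classes were 0.12 for Hist3h2ba in H2B, 0.09 for Hist1h3g in H3 and -0.06 for a probe of Hist1h4i in H4. The only probe above control at an unadjusted p under 0.05 was Hist1h2ae, with 0.20 (adjusted p = 0.27). Hist3h2a and Hist1h2bc, which fell with miR-26a, differed from control by -0.14 and 0.03 with the sponge.

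The size of the sponge difference depended on the experiment. Its median over the histone probes was -0.24 in experiment 1 and -0.06 in experiment 2, and 31 of 46 probes were below control in both, beside 32.1% of all probes. By class, experiment 1 gave medians of -0.51 for H3, -0.42 for H2B, -0.39 for H1, -0.32 for H4 and -0.18 for H2A. Experiment 2 gave -0.17 for H4, -0.08 for H2A, -0.02 for H3, -0.01 for H2B and -0.01 for H1, so the order of the classes was not the same. Without the sponge array of experiment 1 the median was -0.10, and without the control array of experiment 1 it was -0.09. In the limma fit without the experiment as a block, 3 histone probes were lower at an unadjusted p under 0.05 in place of 16. Among all 20168 probes 977 were lower in that fit.

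**Figure D3:**
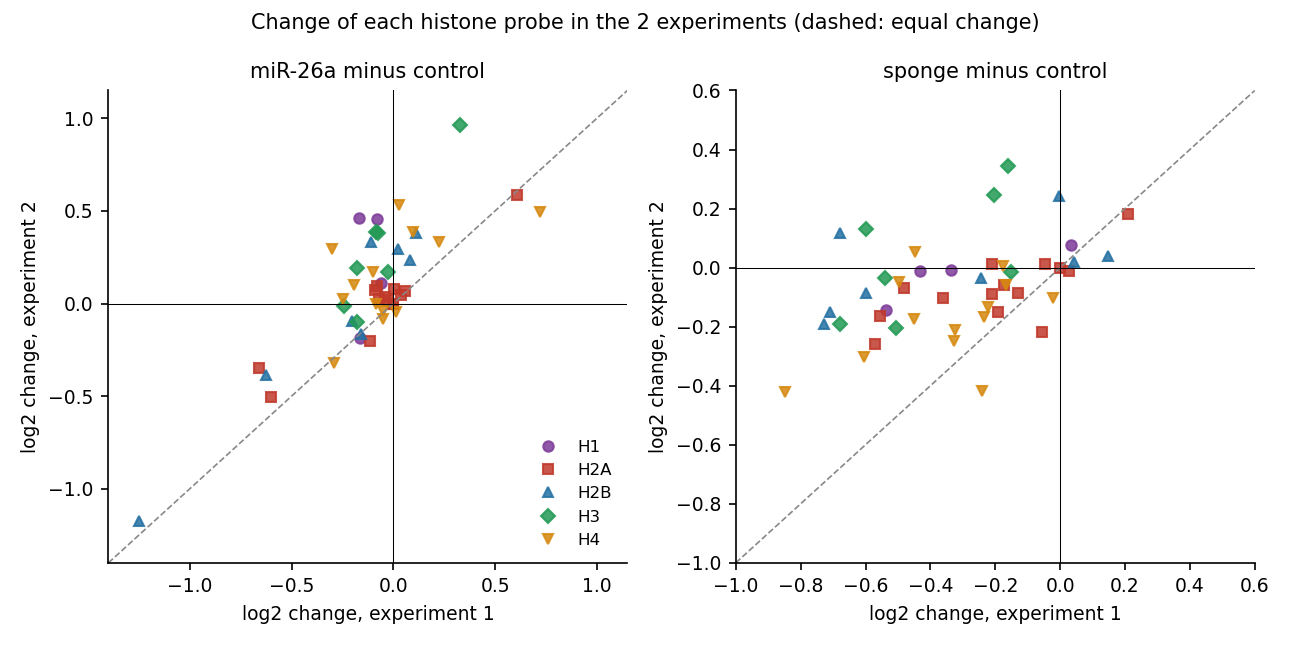
Log2 change of each tested histone probe in experiment 1 (x axis) against experiment 2 (y axis) for miR-26a minus control and sponge minus control, with a symbol for each class and a dashed line at equal change. With miR-26a 14 probes lie below 0 in both experiments, Hist3h2ba the lowest at -1.25 and -1.17, and 12 above 0 in both, while with the sponge most points lie left of 0, with medians of -0.24 in experiment 1 and -0.06 in experiment 2.

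GC content of the probe moved with the sponge difference. Tested histone probes had a median GC content of 51.7%, and all tested probes 43.3%. Over all 20168 probes the change with the sponge correlated with GC content at r = -0.28 and rho = -0.30, and over the 46 histone probes at r = -0.35 and rho = -0.23. These are descriptions across probes, which share the same 6 arrays and are not independent replicates. All tested probes with a GC content of 50% or more had a median change of -0.07, and the others 0.02, while the 28 histone probes in the first range had -0.21 and the 18 in the second -0.14. The GC trend of each array was then removed, in the limma fit with the experiment as a block. The median of the histone probes was -0.13 with 32 of 46 below 0, and 11 were lower at an unadjusted p under 0.05. Among all probes in that fit the median was 0.01, with 46.9% below 0 and 1400 of 20168 lower at that threshold. The median of H4 was -0.19, with 11 of 13 below 0, and that of H2A was -0.01, with 8 of 14 below 0. The part of GC content in the sponge difference beyond this correction was not tested.

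**Figure D4:**
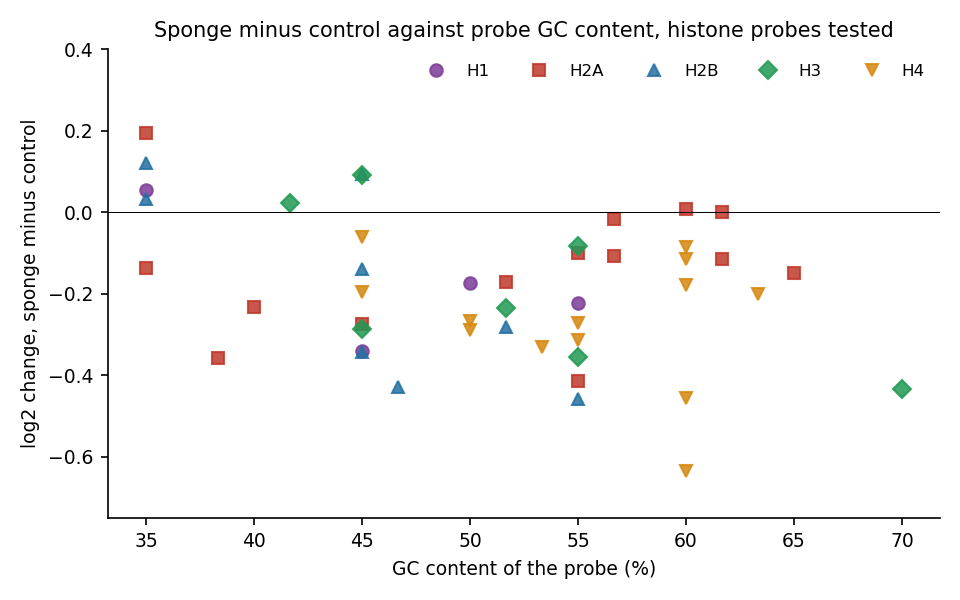
Log2 change of each tested histone probe in sponge minus control against the GC content of the probe in percent, with a symbol for each class. Probes with a GC content of 35% include 4 of the 8 above control, whereas of the 28 probes with 50% or more 26 lie below 0 and Hist1h2ah at 0.

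The direct comparison of the 2 constructs called 12 of 46 histone probes, 3 lower and 9 higher with miR-26a than with the sponge. Among all probes 8.49% were lower and 8.28% higher. The comparison shares its miR-26a arrays with the first and its sponge arrays with the second, so it is no independent support for either. The median log2 difference was 0.21 beside 0.02 for all probes, and 35 of 46 histone probes were higher with miR-26a in both experiments, beside 38.7% of all probes. At an unadjusted p under 0.05, 19 were higher and 5 lower, beside 18.7% and 15.9%. The 6 probes that hold the stem-loop had a median of 0.43, all above 0, and 2 of them were called.

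The 3 lower probes were Hist3h2ba with -1.33 ± 0.08 (adjusted p = 0.0023), Hist1h2bc with -0.54 (adjusted p = 0.018) and Hist3h2a with -0.41 (adjusted p = 0.031). The 9 higher probes came from all 4 core classes and from no H1 gene. In H4 they were the 2 downstream probes of Hist1h4i, with differences of 0.67 (adjusted p = 0.0085) and 0.57 (adjusted p = 0.0086), and Hist1h4j with 0.59 (adjusted p = 0.026). In H2A they were Hist1h2aa with 0.45 (adjusted p = 0.032) and Hist1h2ae with 0.40 (adjusted p = 0.017). In H2B they were Hist1h2bm with 0.62 (adjusted p = 0.035) and Hist2h2bb with 0.59 (adjusted p = 0.041). In H3 they were Hist1h3a with 0.62 (adjusted p = 0.048) and Hist2h3b with 0.50 (adjusted p = 0.047). Of the 9 higher probes, 3 shared a run of at least 20 bases with a probe of another histone gene. Those of Hist2h2bb and Hist1h3a shared one with probes of 2 other classes, and that of Hist1h4j shared 26 bases with Hist1h4k. They may thus not read single genes or classes. The Hist1h4i probe with 0.57 is the middle one of that gene, and whether it also reads other RNAs was not tested.

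For Hist2h2bb, whose probe holds the whole stem-loop, the log2 intensity was 13.14 and 13.33 in control, 13.16 and 13.63 with miR-26a, and 12.43 and 13.18 with the sponge. The miR-26a arrays lay between the control arrays and above them, and the sponge array of experiment 1 alone lay far below. For Hist1h4j, Hist1h2aa, Hist1h2bm, Hist2h2bb and Hist2h3b the change against control was between -0.05 and 0.16 with miR-26a and between -0.64 and -0.41 with the sponge. For Hist1h2ae, both Hist1h4i probes and Hist1h3a it was between 0.28 and 0.65 with miR-26a and between -0.29 and 0.20 with the sponge. The H1 probe with the largest difference was Hist1h1e, at 0.49 (adjusted p = 0.082). The lowest in the classes without a lower call were Hist1h1c with -0.23 (adjusted p = 0.072), Hist1h3c with -0.05 and Hist2h4 with 0.02. Without the sponge array of experiment 1, 1 histone probe was called in place of 12, without that of experiment 2 there were 2, and without the miR-26a array of experiment 2 there were 7.

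The seed of miR-26 was sought in the probes because it is what the sponge and the microRNA act through. The mature mouse sequences from RefSeq are shown with bases 2 to 8, the seed, in capitals, which miR-26a and miR-26b share.
mmu-miR-26a-5p: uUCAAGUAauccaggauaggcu
mmu-miR-26b-5p: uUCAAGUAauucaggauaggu
The seed match TACTTGA was present in 1 of 55 histone probes, that of Hist1h2aa, beside 0.431% of all probes, and the match ACTTGAA in 0 of 55, beside 0.700%. Both words were sought on the sense strand, and they overlap in 6 letters. The Hist1h2aa stretch is shown because it holds the one match, in capitals.
Hist1h2aa, chr13:24026494-24026516 on the plus strand: tgctagaaTACTTGAcagctgag
Hist1h2aa differed from control by 0.04 with miR-26a (adjusted p = 0.84). A probe covers 60 bases, so most of each transcript was not searched.

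The promoters of the histone genes, 250 bases before to 50 after the start in RefSeq (GRCm38.p6), were searched on both strands for short elements known from histone promoters. Of the 49 gene names 46 were matched by accession and 41 had a promoter entry. CCAAT was found in 36 of 41, beside 41.1% of 27025 promoters, and in 2 of 7 H4 genes. The octamer ATTTGCAT is bound by the POU factors that drive H2B genes in S phase. It was found in 6 of 9 H2B and 7 of 14 H2A promoters, beside 1.97% of all. None of the 18 promoters of H1, H3 and H4 held it. The windows of Hist1h2ae and Hist1h2bg overlap, as do those of Hist1h2aa and Hist1h2ba, each with the octamer. The same octamer may thus be counted in both classes. AAACACA, known from H1 promoters, was found in 5 of 6 H1, 2 of 14 H2A and 2 of 9 H2B genes, beside 8.22% of all. It was found in 0 of 5 H3 and 0 of 7 H4 genes. The overlapping windows of Hist1h2aa and Hist1h2ba both hold AAACACA, so the same copy may be counted in H2A and H2B.

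Genes around the supply of histones were read from 4 lists. The first list held histone variants, whose making is in general not confined to S phase and mostly uses polyadenylated mRNAs. Of 17 tested probes 3 were lower and 0 higher with miR-26a than in control, beside 5.14% and 4.50% of all probes, with a median of -0.16. H3f3b, which encodes the H3.3 histone, was lower at 2 of 3 probes. One of these gave 15.48 and 15.52 in control, 14.78 and 14.90 with miR-26a and 15.53 and 15.68 with the sponge, with the miR-26a arrays below all others. The change was -0.66 ± 0.07 (adjusted p = 0.0083). The next changed by -0.44 (adjusted p = 0.022) and the third by -0.21 (adjusted p = 0.11), and all 3 were lower with miR-26a than with the sponge. H3f3a, which encodes the same protein, differed by -0.19 and -0.16 at 2 probes that were not called.

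H2afv, an H2A.Z gene, was lower at 1 of 2 probes, with -0.49 (adjusted p = 0.022), and the other changed by -0.19 (adjusted p = 0.18). Cenpa, the centromere H3, differed by -0.24 (adjusted p = 0.10). H1f0 and H1fx were not tested.

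Among the factors that transcribe, process and degrade histone mRNA, 3 of 32 tested probes were lower with miR-26a than in control and 0 higher, beside 5.14% and 4.50% of all probes, with a median of -0.01. Ccne1, cyclin E1, which with CDK2 activates histone transcription at the start of S phase, gave 13.15 and 13.11 in control, 12.55 and 12.50 with miR-26a, and 13.27 and 13.07 with the sponge. The miR-26a arrays lay below the 4 others, and the change was -0.60 ± 0.07 (adjusted p = 0.012). Its other probe changed by -0.39 (adjusted p = 0.087). Cdk2 gave 11.33 and 11.38 in control, 10.96 and 10.997 with miR-26a and 11.02 and 11.20 with the sponge, a change of -0.37 (adjusted p = 0.037).

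Cpsf2, also called CPSF100, a subunit of the cleavage complex that cuts both histone and polyadenylated mRNAs, fell by 0.57 (adjusted p = 0.013). Its values were 11.87 and 11.76 in control, 11.28 and 11.22 with miR-26a and 11.91 and 11.70 with the sponge. The nuclease partner Cpsf3 differed by 0.08. Slbp, the stem-loop binding protein, differed by -0.10 and 0.05 at its 2 probes (adjusted p = 0.47 and 0.74), and Lsm10 and Lsm11 of the U7 particle by 0.05 and 0.18. Npat, the coactivator of histone transcription, was not well above background on any array, and neither was Ccne2.

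Of 32 tested probes for histone chaperones 1 was lower and 1 higher with miR-26a, beside the same shares, with a median of 0.03. The lower one was 1 of 2 probes of Rbbp4, a subunit of CAF-1 and of other chromatin complexes, with -0.49 (adjusted p = 0.015), while the other probe of the gene differed by 0.00. The higher one was Ipo4, an importin that carries histones H3 and H4, with 0.36 (adjusted p = 0.045). Asf1a, Asf1b and Nasp, which hand newly made histones on, were not called.

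The S-phase list, made of replication and nucleotide synthesis genes, had 1 probe lower (Ccne1, as above) and 1 higher with miR-26a of 33 tested, beside the same shares. Its median was 0.09, and 24 of 33 probes were above control in both experiments, beside 37.4% of all probes. E2f1, a transcription factor of the start of S phase, rose by 0.51 ± 0.07 (adjusted p = 0.017). It gave 11.96 and 11.96 in control, 12.41 and 12.53 with miR-26a, and 11.83 and 11.81 with the sponge. With the sponge 0 probes of the 4 lists were called, and the medians were -0.05 for the variants, 0.02 for the histone mRNA factors, 0.00 for the chaperones and 0.00 for the S-phase genes. The smallest p values belonged to H3f3b with 0.29 and 0.18 among the variants, Hinfp with -0.32 and Cdk2 with -0.25 among the histone mRNA factors, and Rbbp4 with -0.19 and Atrx with -0.20 among the chaperones, none of them called. In the S-phase list they belonged to Tk1, thymidine kinase, with -0.44 (adjusted p = 0.21) and Lig1, a DNA ligase, with -0.17.

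Between the constructs, where 8.49% of all probes were lower with miR-26a than with the sponge and 8.28% higher, 4 of 17 variant probes were lower, namely the 3 of H3f3b and 1 of H2afv. In the histone mRNA list 4 of 32 were lower, 2 of Ccne1 and 1 each of Cpsf2 and Cstf2. Of 32 chaperone probes 1 of Rbbp4 was lower and those of Ipo4 and Mcm2 higher. In the S-phase list 5 of 33 were higher, namely 2 of Tk1 and 1 each of E2f1, Mcm2 and Tyms, and the 2 of Ccne1 lower.

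**Figure D5:**
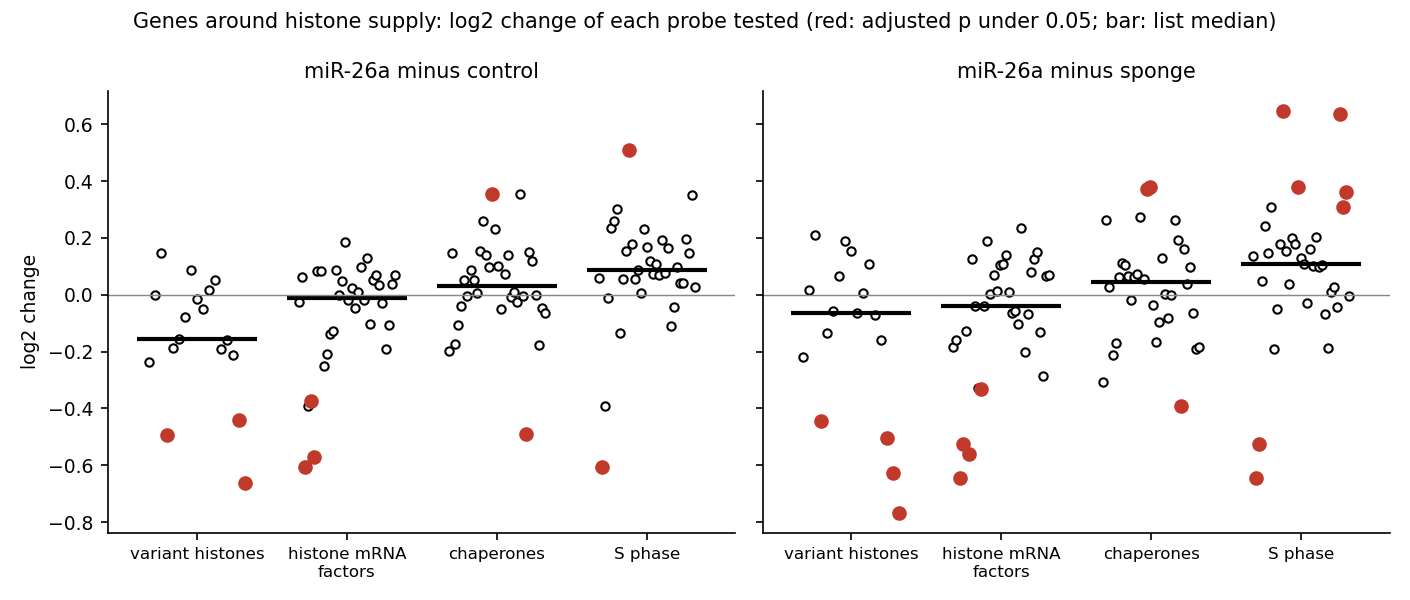
Log2 change of each tested probe in the 4 lists, variant histones, histone mRNA factors, chaperones and S-phase genes, for miR-26a minus control and miR-26a minus sponge, with filled red points for an adjusted p under 0.05 and bars for list medians. In miR-26a minus control 3 variant and 3 histone mRNA probes lie below 0 in red, and the medians are -0.16, -0.01, 0.03 and 0.09.

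The cells carried the marks of pre-B cells: all 9 genes of that marker list, among them the surrogate light chain genes Igll1 and Vpreb1 and the B-lineage factors Pax5 and Ebf1, were well above background on all 6 arrays. Of the markers of other blood cells, 3 of 8 myeloid and 2 of 5 T-cell genes were so. The myeloid genes were Itgam, Csf1r and Elane, while Cd14 and S100a8 were at background on every array, as was Cd3g. The summed raw signal of the myeloid list was 3988 to 4789 in control, 4062 to 4603 with miR-26a and 3364 to 5107 with the sponge. That of the T-cell list was 1377 to 1427, 1285 to 1383 and 1052 to 1309 in the same order. Of 2 tested Itgam probes 1 changed by -0.82 with miR-26a (adjusted p = 0.0072) and the other by 0.06. With the sponge, 4 of 5 tested myeloid probes were below control, with a median of -0.20 and 2 at an unadjusted p under 0.05, and both T-cell probes were below it at that threshold, with a median of -0.31. The part of other cells in the histone values was not tested.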

How the data were processed

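RNA of 6 cultures was measured on single-colour Agilent arrays of 1 slide. The replicate 1 arrays lay in one row of the slide and the replicate 2 arrays in the other, so experiment and row cannot be told apart. The authors deposited scanner intensity values for each array and a table of their quantile-normalized intensity. Here the processed intensity was quantile-normalized over non-control spots, log2-transformed and averaged over spots of a probe that carried no outlier flag. The 20168 probes kept for testing had a signal over 50 on 4 or more arrays and passed the scanner's background call at least once. The model (limma 3.58.1, R 4.3.3) took all 6 arrays and blocked on experiment. Benjamini-Hochberg adjustment ran across every probe kept. The fit was run on simulated data with changes planted in the miR-26a arrays and noise drawn separately for each probe and array. Shifts of a single array shared by many probes were not simulated, so the run does not cover them. Same-numbered arrays deviated together from their group means (r = 0.38 to 0.59). Groups and replicate numbers came from the source labels. The paper describes 2 biological replicates and 2 independent experiments. Both control arrays carry a second accession in their title and may come from an earlier deposit, which bears on every comparison with control. All 6 lay on the same slide. Precision is limited by 2 arrays a group. Alternatives were the fit without the block, other scaling, background correction, filters, probe averaging, GC correction, 2 plain tests and leaving out each array.

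Named were all histone probes at an adjusted p under 0.05, the extremes of each class, Hist3h2ba and Hist2h4, and from each list up to 5 called probes per direction or else the 2 with the smallest p. Other genes were named after their values were seen. The members and lists were chosen with earlier results of these data known. Probe coordinates are those of the array design (mm9), and the files give no exon or UTR annotation. Tables and plots were made with numpy 2.4.6, pandas 2.3.3 and matplotlib 3.10.9. One further list of marker genes is not reported here.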

Additional observations from a re-analysis of the deposited data

How the results depend on the processing

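With 2 arrays a group, the calls depended on the experiment block. Without the replicate block 1 histone probe was called in miR-26a versus control in place of 6, 1 in place of 12 in miR-26a versus sponge, and 3 were lower with the sponge at an unadjusted p under 0.05 in place of 16, and 2 and 7 companion probes were called in place of 9 and 15. Over the whole array the calls then fell from 1036 lower and 908 higher to 238 and 73 in miR-26a versus control, and from 1712 and 1669 to 632 and 365 in miR-26a versus sponge. The number lower with the sponge at the unadjusted threshold fell from 1759 to 977 of 20168. With no filter on dim probes, where no probe of the whole array was called, the counts were 0, 0 and 8, with 0 companion probes called. The unpaired t-test gave 0, 0 and 2, the test of the 2 log ratios 0, 0 and 0, and both gave 0 companion probes. Among all probes the last of these counts was 2286 of 55681 with no filter, 771 of 20168 in the t-test and 753 in the test of log ratios. Hist3h2ba kept its call in miR-26a versus control in each alternative except these 3 and was lower in all of them. Normexp background correction gave 1 call with the sponge. Averaging the probes of a gene left 9 companion calls in miR-26a versus sponge. Leaving out each array in turn gave 1 to 5 histone calls in miR-26a versus control, 1 to 12 in miR-26a versus sponge and 0 with the sponge, and 3 to 21 lower with the sponge at the unadjusted threshold. Companion calls then ranged from 0 to 6 and from 1 to 11. The median histone change ranged from -0.10 to 0.08, from -0.26 to -0.09 and from 0.11 to 0.33 in the 3 comparisons. The cause of these changes was not tested. No named probe that was called, in the main or an alternative fit, changed sign.

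Scaling to the 75th percentile gave 7 histone calls in miR-26a versus control and a sponge median of -0.20. Limits are the 2 arrays a group, the shared coding sequence of H2A genes, probe GC content, and brightest ranks that quantile normalization sets equal. The order of the class medians with the sponge was not stable: without sponge replicate 2 they were -0.45 for H3, -0.37 for H2B, -0.30 for H1, -0.25 for H4 and -0.15 for H2A. Under 75th percentile scaling they were -0.26 for H4, -0.20 for H3, -0.18 for H2A, -0.17 for H2B and -0.14 for H1.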
